A study of Mus musculus with 12 samples.

Results

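Gene expression in the triceps brachii, a forelimb muscle, was compared between mice that received 20-hydroxyecdysone (20E) for 5 days and mice that received saline for 5 days. The mice were C57BL/6J males aged 12 weeks, an inbred laboratory strain with no engineered allele named in the labels. A pump placed under the skin delivered 20E at 5 mg/kg/day or saline, so the controls carried a pump as well. RNA from 3 animals (1 µg each) was combined into 1 pool, each pool was hybridised to 1 array, and each infusion had 3 pools. The comparison therefore uses 6 of the 12 arrays of the series, and the other 6 arrays hold the same infusions continued for 15 days. The spread given here is that between pools, each an average of its animals, and not between single mice. Whole muscle was used, and fewer cells of a type cannot be told apart from less RNA per cell of that type.

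The Illumina MouseWG-6 v2.0 array carries 45281 probes, short DNA strands on beads that bind the RNA of a gene. A detection p-value sets the signal of each probe on each array against control beads that match no gene, and a probe was called detected on an array where this value was under 0.05. Probes detected on at least 3 of the 6 arrays were compared, which gave 18310 probes or 40.4% of the array. Of these, 15688 carried the name of 1 gene, and together they covered 10057 genes. The median level was 5.03 for the 1040 probes detected on exactly 3 arrays, which were just inside this limit, and 4.88 for the 1447 detected on exactly 2, which were just outside it. Levels are normalized signals on the log2 scale, and a difference is the mean of the 20E pools minus that of the saline pools, so that 1 unit is a 2-fold ratio of normalized signal. Levels of different probes are not compared as amounts of RNA, and probes are grouped by signal only to describe precision.

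20E is the steroid that triggers moulting in insects, and many plants make it too. In insects it binds the ecdysone receptor, a nuclear receptor that mammals lack. In mammals it has been studied for its effects on protein synthesis in muscle, with the kinase Akt, the estrogen receptor beta and the Mas receptor proposed as mediators. Growth of adult muscle is governed by a balance between insulin-like growth factor signalling through Akt and mTOR, which raises protein synthesis, and ubiquitin ligases and myostatin, which limit muscle mass.

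Every array detected a similar number of probes, between 17633 and 18861. The labelled tissue was borne out by its defining genes: Acta1 (skeletal actin), Ckm (muscle creatine kinase), Mb (myoglobin) and Ttn (titin) had levels of 15.12 to 15.91 in all 6 pools. All 8 skeletal muscle markers were measured, 4 were higher and 4 lower with 20E, and their median difference was 0.00. Some pools held additional signals. Transcripts of lymphocytes were high in 20E pool 3 and saline pool 2, transcripts of fat cells were high in 20E pool 1, and transcripts of slow muscle fibres were low in saline pool 3. The values are given below beside the results they touch.

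No probe passed the test between 20E and saline muscle after 5 days. In limma, which fits a linear model to each probe and shares information on the spread across probes, 0 of 18310 probes (0%) had an adjusted p under 0.05 after Benjamini-Hochberg adjustment. The lowest adjusted p was 0.931. An unadjusted p under 0.05 was found for 650 probes (3.55%), of which 359 (1.96%) were higher and 291 (1.59%) lower with 20E. The levels of all 20E pools lay above those of all saline pools for 743 probes (4.06%) and below them for 553 (3.02%), together 7.08%. Probes higher with 20E made up 50.7% of all tested probes, and the median difference was 0.00.

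Most differences were small. The median absolute difference was 0.09, and for 90.5% of the probes the difference was smaller than 1.2-fold in either direction. A difference beyond 1.5-fold was seen for 99 probes (0.541%), a count that depended on single pools and was 464 without saline pool 2 and 343 without 20E pool 3. Of the 99, 16 probes (0.0874%) were more than 2-fold higher with 20E and 0 were more than 2-fold lower. The differences ran from -0.998 to 1.82.

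**Figure D1:**
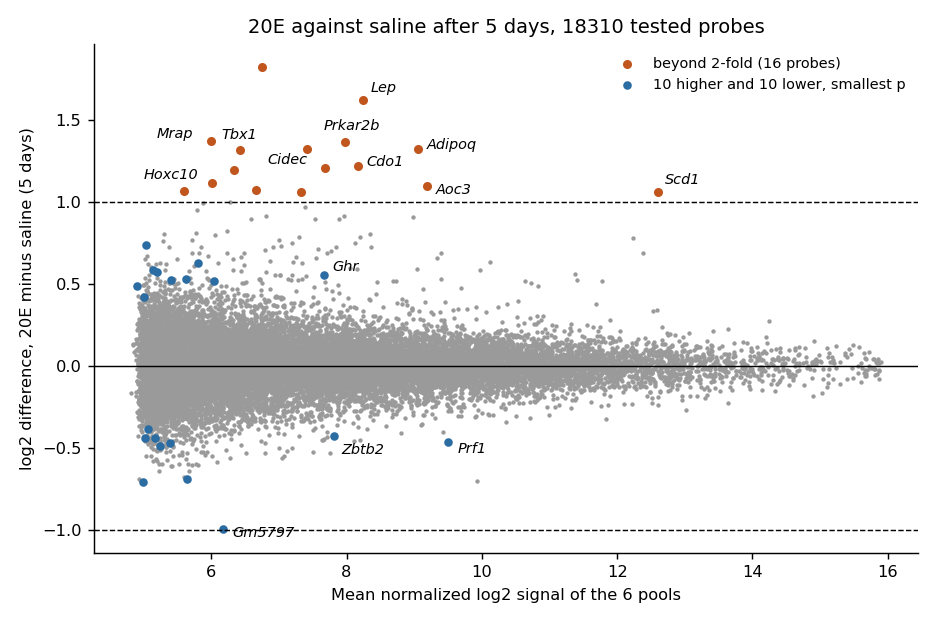
Difference between 20E and saline pools after 5 days (log2, vertical axis) against the mean normalized log2 signal of the 6 pools (horizontal axis), 1 point per tested probe. The dashed lines mark 2-fold; 16 probes lie above the upper line and 0 below the lower one, and the cloud narrows from dim to bright probes.

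Pools of the same infusion differed from each other about as much as pools of different infusions. The root-mean-square difference over all tested probes was between 0.34 and 0.38 among the 20E pools and between 0.25 and 0.52 among the saline pools. Between a 20E and a saline pool it was between 0.27 and 0.49, with a median of 0.34 over 9 pairs. The smallest difference of the 15 pairs was that between saline pools 1 and 3, and 20E pool 2 was closer to either of these (0.27) than to any other 20E pool. The share of the total variation that lay between the infusions was 10.8%, where 1 of 5 degrees of freedom accounts for 20%. In an exact permutation test over the 10 ways to divide the 6 pools into 2 sets of 3 this share had p = 0.8, and the smallest p this design allows is 0.1. The first principal component held 56.0% of the variation and set saline pool 2 and 20E pool 3 apart from the other pools. The second held 17.4% and set 20E pool 1 apart.

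How tightly a difference was bounded depended on how bright the probe was. The 18310 probes were divided by their mean level over the 6 pools into 5 bins of 3662 probes. The bins covered levels of 4.82 to 5.59, 5.59 to 6.64, 6.64 to 7.95, 7.95 to 9.57 and 9.57 to 15.898. From the dimmest to the brightest bin, the median absolute difference was 0.14, 0.12, 0.09, 0.07 and 0.06. The margin of the 95% confidence interval, the distance from the difference to either end, had medians of 0.41, 0.38, 0.30, 0.24 and 0.21 in the same order. On this scale both the differences and their margins were thus largest in dim probes. Without background correction the order did not hold: the median margins were 0.15, 0.16, 0.17, 0.18 and 0.17 and the median absolute difference in the dimmest bin was 0.05, the smallest of the 5. With an offset of 50 the margins were 0.23, 0.25, 0.24, 0.21 and 0.19.

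Over all tested probes the median margin was 0.30, and the interval lay wholly inside a 2-fold change in either direction for 96.6% of the probes. The remaining 624 probes had an interval that reached beyond 2-fold. For a 1.5-fold change the share inside was 78.7%. By bin, the interval lay inside 1.5-fold for 53.4% of the dimmest probes, then for 65.1%, 85.3%, 93.0% and 96.5%. The share of probes with an unadjusted p under 0.05 was 5.71% in the dimmest bin and decreased to 4.51%, 4.29%, 2.18% and 1.06%. The brightest bin therefore held 39 such probes and the dimmest 209. The detection rule was applied to these same 6 arrays, so a dim probe could enter through 1 infusion alone, which favours a difference. In the dimmest bin, 51 probes were detected in all 3 20E pools and 0 saline pools, and 31 in the opposite way. Of these, 30 and 21 had an unadjusted p under 0.05 in limma. In this fit the spread of every probe was drawn toward 1 common value, whatever its brightness. The median residual SD was 0.25 in the dimmest bin and 0.10 in the brightest, so margins and p-values by bin depend on this setting. With a spread that follows brightness (limma, trend and robust variances), 553 probes had an unadjusted p under 0.05 and 96.4% lay inside 2-fold.

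Bounds in dim probes depend on the offset of 16 that was added to every corrected signal before the logarithm. At the median level of the dimmest bin, a doubling of the corrected signal moves the normalized value by 0.65, while in the brightest bin it moves it by 0.99. With the offset taken off, the interval lay inside 2-fold for 47.5% of the probes in the dimmest bin and for 82.2%, 95.1%, 98.1% and 99.2% in the next bins. For 1.5-fold the shares were 3.63%, 32.4%, 76.9%, 92.1% and 96.3%. The bounds thus depended on the offset most in the dimmest bin and least in the brightest. In the authors' own log2 values, also tested with limma, the share inside 2-fold was 26.2% in the dimmest bin and 99.1% in the brightest.

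**Figure D2:**
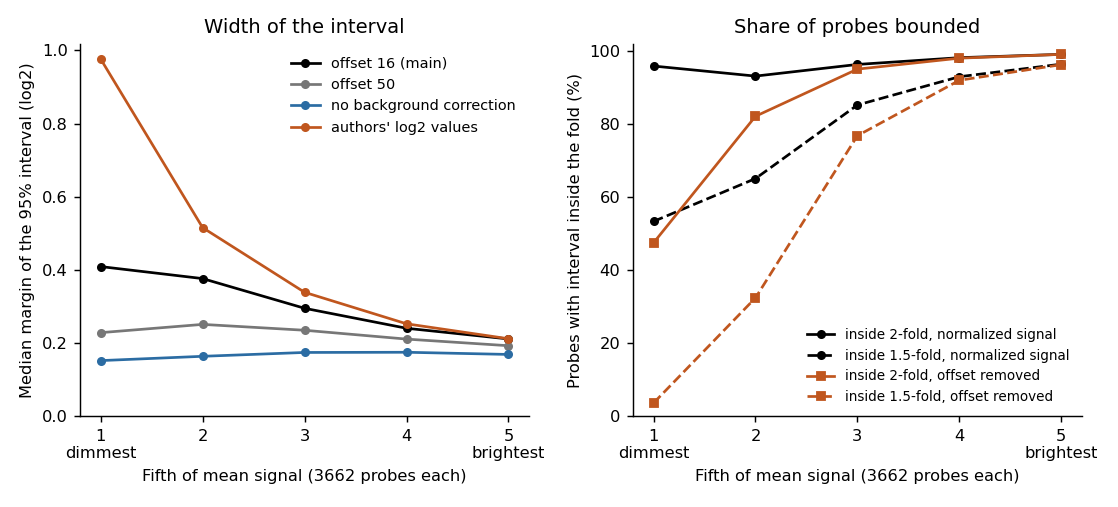
Left, the median margin of the 95% interval (log2) in 5 bins of brightness with 3662 probes each, for 4 ways of correcting background. Right, the percentage of probes whose interval lies inside 2-fold (solid lines) or 1.5-fold (dashed lines), with the offset of 16 (black) and with it taken off (orange); in the dimmest bin the share inside 2-fold was 96.0% and 47.5%.

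Gene names could be attached to the probes with the smallest p. Among the 10 higher and the 10 lower, Gm5797, a predicted gene, came first. Its levels were 5.57, 5.75 and 5.71 in the 20E pools and 6.41, 6.51 and 7.11 in the saline pools. All 20E pools lay below all saline pools, and saline pool 3 was the highest. The difference was -0.998 ± 0.156 (SE, 3 pools in each group), with an adjusted p of 0.931 in limma. After 15 days the difference of the same probe was -0.22, and the 2 differences had an unadjusted p of 0.00455 in the limma test of one against the other, which gave an adjusted p of 0.9999.

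Ghr, the growth hormone receptor, had levels of 8.11, 7.94 and 7.76 with 20E against 7.39, 7.28 and 7.48 with saline. All 20E pools lay above all saline pools. The difference was 0.55 ± 0.11 (SE, 3 pools in each group; 95% interval 0.30 to 0.81), with an adjusted p of 0.9999 in limma. Growth hormone acts through this receptor and raises insulin-like growth factor 1 in muscle and liver. Other probes of Ghr were also measured and gave differences of 0.07 and 0.04, so that this difference was carried by 1 of 3 probes. After 15 days the difference of the first probe was 0.11.

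Several of the other genes higher with 20E were close to the detection limit. This limit, the lowest level of a detected probe, lay between 4.98 and 5.11 on the 6 arrays. Cpeb2, which regulates the translation of messenger RNAs by binding their ends, had levels of 5.18, 5.51 and 5.51 with 20E and 4.73, 4.72 and 4.56 with saline. It was detected in every 20E pool and in 0 saline pools, which sets only a lower bound on the ratio of the means. This bound, at least 1.27-fold higher with 20E, leaves out the spread between pools and is not a confidence limit. Pxdn, a peroxidase that cross-links collagen IV, had means of 5.14 ± 0.17 and 4.66 ± 0.09 (SD, 3 pools each) and was likewise at least 1.06-fold higher. Sass6, a structural protein of centrioles, had means of 5.67 ± 0.15 and 5.15 ± 0.03 (SD, 3 pools each). Its difference was 0.52 ± 0.12 (SE) after 5 days and 0.49 after 15 days. Among the 10 higher genes this was the largest difference after 15 days, followed by 0.21 for Cpeb2. The other genes of this set were 2410004B18Rik (0.52), Spsb4 (0.58), 1700037C18Rik (0.57), N4bp2 (0.53), Dnajc16 (0.42) and Xpr1, an exporter of phosphate (0.62). Like Cpeb2 and Pxdn, Spsb4, 1700037C18Rik and Dnajc16 were detected in every 20E pool and in 0 saline pools. Such genes met the detection rule through the 20E pools alone, which favours a difference, so their small p is no independent support. Other, brighter probes differed by 0.02 and -0.02 for Xpr1 and by -0.06 and 0.05 for Dnajc16. Another probe differed by -0.06 for 2410004B18Rik, 0.21 for 1700037C18Rik and 0.28 for Cpeb2.

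Prf1, which encodes perforin, a pore-forming protein of killer lymphocytes, was among the 10 lower. Its levels were 9.22, 9.29 and 9.30 with 20E and 9.74, 9.60 and 9.86 with saline. The groups did not overlap, and saline pool 2, which had the highest levels of other lymphocyte transcripts, was the lowest saline pool for this probe. The difference was -0.46 ± 0.11 (SE), with an adjusted p of 0.9999 in limma, and it was -0.09 after 15 days. Zbtb2, a zinc finger protein, had means of 7.60 ± 0.10 with 20E and 8.03 ± 0.08 with saline (SD, 3 pools each), a difference of -0.43. Pkp4, a desmosomal plaque protein, differed by -0.49 at 1 probe and by 0.03 and 0.01 at its other probes. The remaining genes were 4930555G01Rik (-0.71), Gxylt1 (-0.69), Nhlrc3 (-0.47), Pdcd11 (-0.44), Fam120b (-0.44) and Zfp414 (-0.38). Of these, 4930555G01Rik, Fam120b and Zfp414 were detected in every saline pool and in 0 20E pools. They met the detection rule through the saline pools alone, which favours a difference. Other tested probes differed by -0.02, -0.09 and 0.15 for Fam120b and by -0.04 for Zfp414.

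**Figure D3:**
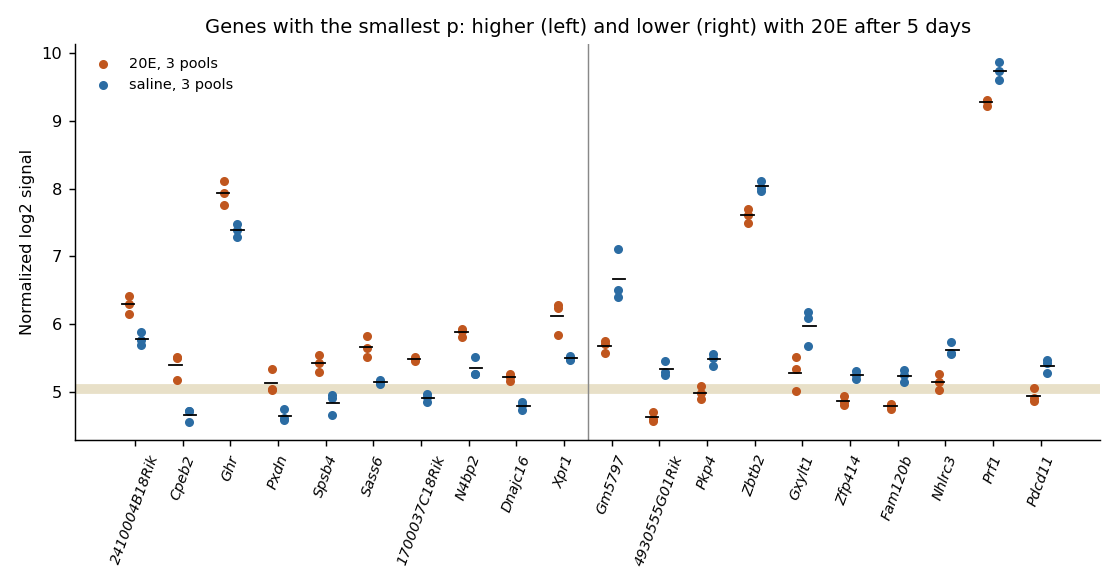
Normalized log2 signal of the 10 genes higher (left of the line) and the 10 lower (right) with the smallest p, 1 point per pool, with the mean of 3 pools as a bar. The shaded band is the lowest detected level of the 6 arrays, 4.98 to 5.11; 20E and saline pools do not overlap for any of the 20 genes, which were chosen for their difference.

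Probes of the same gene agreed only in part. For the 3840 genes with more than 1 tested probe, the differences at the 2 brightest probes correlated with r = 0.26 across genes, and their signs were the same for 57.6% of them. These points share the 6 arrays, and genes are not independent replicates. Where the dimmer probe of the pair lay in the dimmest bin r was 0.16, and where it lay in the brightest bin r was 0.46.

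The 16 probes beyond 2-fold were chosen here after their values had been seen. Of these, 3 (Lep, Adipoq and Cidec) are on the list of adipocyte markers, and Cidea is on that of brown fat. Lep, the hormone leptin that fat cells secrete, had levels of 11.02, 8.15 and 8.01 with 20E and 7.21, 7.89 and 7.22 with saline. The 20E pools lay above the saline pools, but 20E pool 1 was far above all others. The difference was 1.62 ± 0.66 (SE), with an interval from 0.18 to 3.06 and an adjusted p of 0.9999 in limma. Adipoq, which encodes the fat cell hormone adiponectin, had levels of 11.19, 8.79 and 9.15 with 20E and 7.92, 9.32 and 7.93 with saline. Here saline pool 2 lay above 20E pools 2 and 3, and the difference of 1.32 had an interval from -0.05 to 2.69.

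The others included Cidec (1.21) and Cidea (1.07), proteins of lipid droplets, Scd1 (1.06) and Elovl6 (1.19), which desaturate and lengthen fatty acids, Aoc3 (1.09), Cdo1 (1.21), Mrap (1.37), Prkar2b (1.36), Tmem45b (1.32), Tbx1 (1.31), Slc1a3 (1.06) and Ppp1r3b (1.06). The probe with the highest difference, 1.82, has no gene in the annotation used here. Hoxc10, a homeobox gene that marks the position of a tissue along the body axis, differed from these in its pattern. Its levels were 9.64, 4.95 and 5.11 with 20E and 5.74, 5.25 and 5.36 with saline, so that 20E pool 1 alone was high and the other 20E pools were the lowest of all.

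Each of the 16 probes had its highest level in 20E pool 1. Without that pool, 1 of the 16 remained beyond 2-fold and their median difference was 0.61 in place of 1.21, while over all probes 1 was more than 2-fold higher and 8 were more than 2-fold lower. After 15 days the differences of the same probes lay between -0.54 and 0.41. Of the 7 adipocyte markers on the array, 4 were measured (Adipoq, Lep, Cidec and Pparg) and all 4 were higher with 20E, with a median difference of 1.26 beside 0.00 for all probes and with 0 passing the test. Plin1, Retn and Fabp4, which also define fat cells, were below the detection rule. The summed signal of the 4 markers was between 1075 and 5536 in the 20E pools and between 586 and 1286 in the saline pools. Their median difference was 0.56 without 20E pool 1. The part of fat in these differences was not tested.

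**Figure D4:**
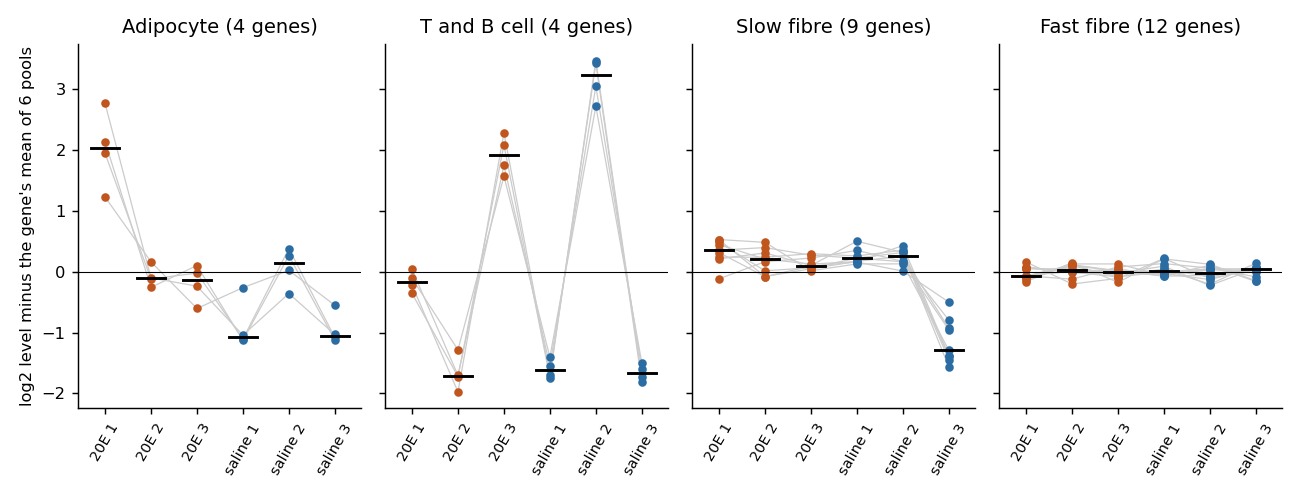
Deviation of each gene's normalized log2 level from its mean of 6 pools, for measured markers of adipocytes (4 genes), T and B cells (4), slow fibres (9) and fast fibres (12), 1 point per gene and pool with grey lines joining a gene and black bars at the median. Adipocyte genes were high in 20E pool 1, lymphocyte genes in 20E pool 3 and saline pool 2, slow fibre genes were low in saline pool 3, and fast fibre genes stayed near 0 in all pools.

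Lymphocyte transcripts divided the pools without regard to infusion. Cd3d, a subunit of the T cell receptor complex, had levels of 5.78, 4.41 and 8.22 with 20E and 4.4, 9.61 and 4.4 with saline. Cd79b, its counterpart in the B cell receptor, had levels of 6.42, 4.67 and 8.93 with 20E and 4.94, 10.07 and 4.83 with saline. Saline pool 2 was the highest, followed by 20E pool 3 and then 20E pool 1, while the remaining 3 pools were below the detection limit for both genes. The differences between infusions were 0.00 ± 1.25 and 0.06 ± 1.29 (SE), with intervals that reached from -2.76 to 2.76 for Cd3d. These pools thus set only wide bounds on an effect of 20E on such genes.

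Slow fibre genes were also set by 1 pool. Myl2, a myosin light chain of slow fibres, had levels of 12.74, 12.78 and 12.66 with 20E and 12.61, 12.70 and 10.82 with saline. Tnnt1, the slow troponin T, had levels of 12.01, 12.01 and 12.07 with 20E and 12.03, 12.13 and 10.38 with saline. In both, saline pool 3 was low and the other saline pools lay close to the 20E pools. All 9 measured slow fibre genes were higher with 20E, with a median difference of 0.42 and 0 passing the test, and without saline pool 3 the median was -0.04. The summed signal of the list was 11122 in saline pool 3 and between 27424 and 31391 in the 20E pools. In contrast, the 12 fast fibre genes were 6 higher and 6 lower with a median of 0.00, and the interval of each lay inside 1.5-fold. Myh4, the fast myosin heavy chain 2B that dominates this muscle, had levels between 14.70 and 14.82 with 20E and between 14.53 and 14.88 with saline, a difference of 0.02 with an interval from -0.22 to 0.26.

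Receptors for steroids, and others related to them or to 20E, were examined next. Of 14 genes on the list, 6 were measured, 3 higher and 3 lower with 20E, with a median difference of 0.09. Mas1 and Esr2, which encode the Mas receptor and estrogen receptor beta, were below the detection rule, as were Nr3c2, Pgr, Vdr and Nr1h4. Esr1, the estrogen receptor alpha, had levels of 9.0, 8.87 and 8.86 with 20E and 8.76, 8.55 and 8.57 with saline. The groups did not overlap, and the difference was 0.29 ± 0.11 (SE, 3 pools in each group), with an unadjusted p of 0.0240 and an adjusted p of 0.9999 in limma. After 15 days it was 0.22. The glucocorticoid receptor Nr3c1 had a difference of 0.32 ± 0.25 (SE) with overlapping groups. Of 10 genes that glucocorticoids induce, 9 were higher and 1 lower, with a median of 0.13, and 0 passed the test. Fkbp5 (0.10) and Tsc22d3 (-0.03), the first of these targets, had pools that overlapped. The largest difference was that of Ddit4, an inhibitor of mTOR, with levels of 10.18, 9.13 and 9.66 with 20E and 9.10, 9.91 and 8.38 with saline. Those groups overlapped, and the difference was 0.53 ± 0.38 (SE). Lcn2, a secreted protein that binds iron carriers, was the 1 gene of 10 whose groups did not overlap, beside 7.08% of all tested probes. Its levels were 6.23, 5.80 and 5.75 with 20E and 5.54, 5.71 and 5.35 with saline, a difference of 0.39 ± 0.27 (SE). Without 20E pool 1 the list was 6 higher and 4 lower, with a median of 0.06.

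Genes of the insulin, IGF and mTOR pathway had a median difference of 0.02. Of 27 genes, 23 were measured. At the brightest probe of each, 14 were higher and 9 lower, 0 with an unadjusted p under 0.05. Dimmer probes of Insr and Tsc1 differed by -0.44 and -0.40, the latter with an unadjusted p of 0.00353 in limma. Both were detected in every saline pool and in 0 20E pools, and so met the detection rule through the saline pools alone. The interval of all 23 lay inside 2-fold and that of 20 inside 1.5-fold. Igf1, the growth factor that muscle makes in response to growth hormone, had levels of 8.08, 7.56 and 7.56 with 20E and 7.70, 7.40 and 7.96 with saline. The groups overlapped, and the difference of 0.05 had an interval from -0.40 to 0.49. Its receptor Igf1r differed by -0.03 (interval -0.25 to 0.18) and the insulin receptor Insr by -0.16 (-0.39 to 0.08). Of the Akt kinases on the list, Akt1 was below the detection rule and Akt2 had the largest difference of the list. Its levels were 5.85, 5.82 and 5.50 with 20E and 5.08, 5.37 and 5.65 with saline. The groups overlapped, and the difference of 0.36 ± 0.27 (SE) had an interval from -0.23 to 0.95.

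Muscle loss genes gave the same picture. Of 20 genes of atrophy and proteolysis, 16 were measured, 8 higher and 8 lower, with a median of 0.00. Fbxo32 and Trim63, the ubiquitin ligases atrogin-1 and MuRF1, differed by -0.01 (interval -0.63 to 0.60) and -0.06 (-0.28 to 0.16). Ctsl, the lysosomal protease cathepsin L, had levels of 5.10, 5.61 and 5.30 with 20E and 4.75, 5.12 and 4.86 with saline, where the groups overlapped near the detection limit. Its difference was 0.43, with an unadjusted p of 0.0213 and an adjusted p of 0.9999 in limma. Mstn, which encodes myostatin, was below the detection rule. Of the 11 measured genes of its family, 3 were higher and 8 lower, with a median of -0.05. The activin receptor Acvr2a, through which myostatin can signal, differed by 0.42 ± 0.18 (SE) and Id1, an inhibitor of differentiation induced by bone morphogenetic proteins, by -0.36 ± 0.15 (SE). Their unadjusted p-values were 0.0383 and 0.0314 and their adjusted p-values 0.9999 in limma. Without saline pool 2, where Acvr2a was lowest, its difference was 0.21.

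Most genes of energy metabolism had an interval inside 1.5-fold, as had 78.7% of all tested probes. All 14 measured genes of glycolysis and glycogen had an interval inside 1.5-fold, 9 were higher and 5 lower, and the median was 0.02. Pfkm, the muscle phosphofructokinase, differed by 0.02 (interval -0.18 to 0.23), and the glucose transporter Slc2a4 by 0.03 (-0.19 to 0.25). For fatty acid uptake and oxidation, 9 of 15 genes were higher and 6 lower with a median of 0.01. The interval of 12 of these lay inside 1.5-fold and that of 14 inside 2-fold. For mitochondrial genes the counts were 8 higher and 9 lower of 17, and the interval of 16 lay inside 1.5-fold. Ppargc1a, a coactivator that drives mitochondrial biogenesis, had levels of 9.93, 9.67 and 9.69 with 20E and 10.36, 9.58 and 10.27 with saline, with overlapping groups and an interval from -0.82 to 0.20. Calcium handling genes (5 of 8 higher, median 0.01) and myogenic regulators (4 of 8 higher, median 0.02) were centred near 0 as well.

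Stress, signalling and matrix lists had medians between -0.08 and 0.09, and 0 of their genes passed the test. Of 12 heat shock and endoplasmic reticulum stress genes, 3 were higher and 9 lower, with a median of -0.06. Hspa1b, an inducible heat shock protein, had levels of 5.07, 5.45 and 5.38 with 20E and 6.06, 5.69 and 5.80 with saline. The groups did not overlap, and the difference of -0.55 ± 0.17 (SE) had an unadjusted p of 0.00872 and an adjusted p of 0.9999 in limma, while its near-identical copy Hspa1a differed by -0.10, and probes of such copies may bind either transcript. Interferon response genes were 8 higher and 3 lower (median 0.09), but this median was 0.35 without saline pool 2 and -0.06 without 20E pool 1. Clock genes were 4 higher and 7 lower (-0.08), ribosomal and translation genes 4 and 9 (-0.02), immediate early genes 3 and 6 (-0.02), inflammation genes 4 and 1 (0.05) and extracellular matrix genes 8 and 5 (0.01). None of these counts is set against a test of the list.

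Markers of the other cell types of muscle tissue completed the survey. Endothelial genes were 1 higher and 7 lower of 8, with a median of -0.12, and the interval of each lay inside 1.5-fold. Pecam1, an adhesion molecule of vessel walls, had levels of 8.41, 8.36 and 8.66 with 20E and 8.68, 9.06 and 8.46 with saline. The groups overlapped, and the difference was -0.26 ± 0.14 (SE). Flt1, a receptor for vascular endothelial growth factor, was the 1 gene of these 8 whose groups did not overlap, beside 7.08% of all tested probes. Its levels were 10.79, 10.92 and 10.92 with 20E and 11.06, 10.96 and 11.01 with saline, a difference of -0.13 ± 0.10 (SE). The summed signal of the 8 genes was between 4378 and 5252 in the 20E pools and between 5354 and 5541 in the saline pools. Without 20E pool 1 the median of the list was -0.06. Macrophage genes were 2 higher and 6 lower (-0.12), mast cell genes 0 and 4 (-0.22), and fibroblast genes 2 and 3 (-0.04). As a median the macrophage genes were highest in saline pool 2, and their median difference was 0.05 without that pool and 0.00 without 20E pool 1. Of 3 measured tendon and cartilage genes, all were lower, with a median of -0.41. Among them Comp, a cartilage matrix protein, had levels of 6.22, 7.06 and 7.13 with 20E and 7.38, 7.54 and 7.13 with saline, so that 20E pool 1 was lowest, and without that pool the median of the list was -0.17. Another, dimmer probe of Comp had levels of 5.13, 5.54 and 5.45 with 20E and 5.89, 6.07 and 5.75 with saline. There the groups did not overlap, and the difference was -0.53 ± 0.19 (SE), with an unadjusted p of 0.0195 and an adjusted p of 0.9999 in limma. Krt10, a keratin of the epidermis, differed by 0.20 with groups that did not overlap and an unadjusted p of 0.0428 in limma. Krt5, Krt14, Krt1 and Lor, also on the epidermis list, were below the detection rule.

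The liver genes Apoa1 and Ttr had a wide spread between pools, while Alb, also on the liver list, was below the detection rule. Ttr, which carries thyroid hormone and retinol in blood, had levels of 8.94, 7.31 and 5.82 with 20E and 7.72, 7.41 and 7.95 with saline. The highest and the lowest pool were thus both 20E pools, and the interval reached from -3.45 to 2.78. The neutrophil genes S100a8 and S100a9 differed by 0.40 and 0.39, and without saline pool 3, where both were lowest, the median of the list was -0.04. Ngp, Camp, Ltf and Mpo of the neutrophil list were below the detection rule. The remaining markers, of red blood cells (median -0.08), lymphatic vessels (0.01), smooth muscle (0.00), Schwann cells (-0.19), brown fat (0.07) and heart (0.37 at Myh6 alone), had 0 genes with an unadjusted p under 0.05. Without saline pool 3, where Myh6 was lowest, its difference was -0.01. In the brown fat list the differences ran from -0.31 for Ppargc1a to 1.07 for Cidea. Ucp1 and Elovl3 of the brown fat list and Nppa and Tnni3 of the heart list were below the detection rule.

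Detection itself was compared over all 45281 probes. Of these, 15502 were detected in all 6 pools, 22951 in none, and 4020 in 1 or 2 pools. A probe was called gained where all 3 20E pools and 0 saline pools detected it, and lost in the opposite case. Gained were 51 probes (0.113%) and lost were 31 (0.0685%). After 15 days the same counts were 63 (0.139%) and 30 (0.0663%). A probe detected in a single pool was more frequent than either: 20E pools 1, 2 and 3 alone detected 369, 578 and 358 probes, and saline pools 1, 2 and 3 alone detected 357, 653 and 258. Detection in a single pool asks for less than agreement among all 3 pools of a group, so these counts are no yardstick for gain or loss. No test was made, since 3 pools against 3 cannot give an exact permutation p below 0.1.

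**Figure D5:**
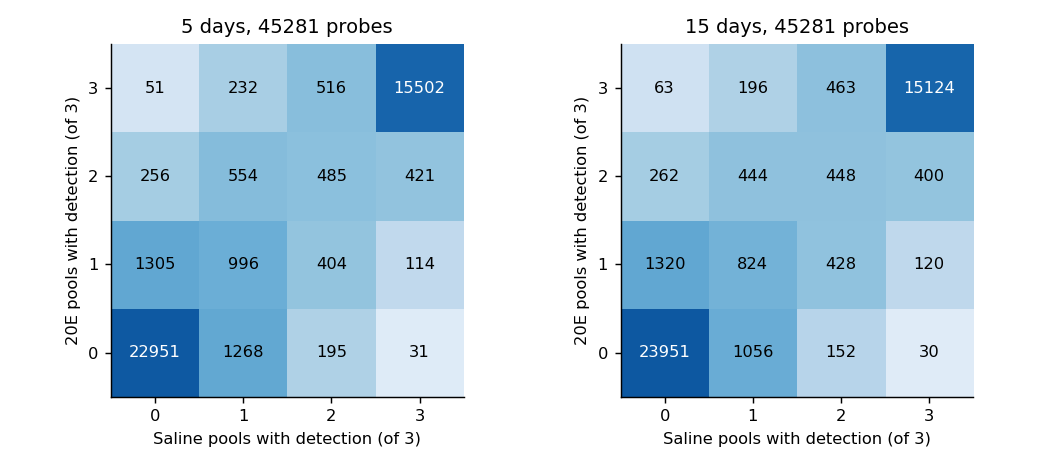
Number of probes by how many 20E pools (vertical axis) and saline pools (horizontal axis) detected them, after 5 days (left) and 15 days (right), with darker squares for more probes on a log scale. After 5 days, 51 probes in the upper left corner were gained and 31 in the lower right corner were lost; 63 and 30 after 15 days.

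All gained and lost probes lay in the dimmest bin, where they crossed the detection limit by little. The lower bounds of the gained probes were between 1.02-fold and 1.35-fold, with a median of 1.12-fold, and those of the lost probes between 1.05-fold and 1.28-fold, with a median of 1.17-fold. A gene name was attached to 40 gained and 24 lost probes. The gained genes with the largest difference were Cpeb2, described above, Map2k5, Dmtn, Comtd1 and Spsb4. Map2k5, a kinase of the ERK5 cascade, had levels of 5.27, 5.71 and 5.04 with 20E and 4.70, 4.69 and 4.68 with saline, and was at least 1.22-fold higher. Another, brighter probe of Map2k5 differed by 0.05. Dmtn, the actin-bundling protein dematin, was at least 1.24-fold higher and Comtd1 at least 1.35-fold higher. Spsb4, a substrate adaptor of a ubiquitin ligase, was at least 1.30-fold higher, with a difference of 0.58 after 5 days and -0.14 after 15 days.

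The lost genes with the largest difference were 4930555G01Rik, Cntnap4, Ywhag, Tcte3 and Fam83h. 4930555G01Rik had levels of 4.61, 4.72 and 4.58 with 20E and 5.26, 5.30 and 5.46 with saline, and was at least 1.24-fold lower with 20E. Ywhag, a 14-3-3 adaptor protein, was at least 1.28-fold lower at this probe, while another probe of the gene differed by 0.16. Cntnap4, a neuronal adhesion protein, was at least 1.19-fold lower, Tcte3 at least 1.21-fold lower and Fam83h at least 1.27-fold lower. Each of these 10 genes had an adjusted p of 0.9999 in limma.

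Other measurements of the gained and lost genes were mixed. Of 24 other tested probes for the gained genes, 16 differed in the same direction, with a median of 0.04, and of 19 for the lost genes, 11 did, with a median of -0.04. After 15 days, 25 of the 51 gained probes and 16 of the 31 lost probes differed in the same direction as after 5 days. The detection pattern itself recurred after 15 days for 1 gained and 0 lost probes.

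The 20E effect after 15 days was set against that after 5 days in the same fit. In limma, 0 of 18310 probes (0%) passed for this difference, the lowest adjusted p being 0.99985. Unadjusted, 612 probes (3.34%) had a p under 0.05. No probe was therefore shown to respond at 5 days in another way than at 15 days. A difference that misses the threshold does not show that the infusions acted alike, and the intervals above give the sizes that remained possible.

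The columns of the signal table carry running numbers, which the labels do not define, and the comparison was repeated within them. Within numbers 1 to 6, which hold 20E pool 1 and saline pools 1 and 3, limma called 8 of 18310 probes, with a lowest adjusted p of 0.0212. The named ones were Hoxc10, the lymphocyte genes Fcmr and Trbv13-2, and Glycam1, a mucin of lymph node vessels. Fcmr, an IgM receptor, had levels of 7.28, 4.77 and 9.84 with 20E and 4.62, 10.88 and 4.72 with saline. These calls rest on 20E pool 1 alone, whose spread was assumed to equal that of the other groups. Within numbers 7 to 12, which hold the other 3 pools, 0 probes were called in limma, with 1250 at an unadjusted p under 0.05. The median difference of the adipocyte markers was 3.15 within numbers 1 to 6 and -0.29 within numbers 7 to 12.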

How the data were processed

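Biotin-labelled RNA of 12 pools was measured on Illumina BeadChips. BeadStudio 3.1.3 and limma appear, with no role given, in the submitters' processing notes. Per the file headers, the deposited signal intensity is not normalized, and the deposited detection p-value compares it with negative controls. The authors also deposited log2 values of the same arrays, whose background subtraction and floor are not given in the sources used here. Signal columns carry a code that gives infusion and replicate but not duration. Duration was taken from the definition of this comparison. It was checked by the rank correlation across probes with the log2 columns, which name their sample. This correlation was at least 0.976 with the column's own sample and at most 0.899 with another.

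neqc of limma 3.58.1 (R 4.3.3) corrected the signals by normexp, estimated from the detection p-values, added an offset of 16 and quantile-normalized 12 arrays. One mean per group was fitted to 12 arrays (lmFit, eBayes; residual degrees of freedom 8), with two-sided tests and Benjamini-Hochberg adjustment over 18310 probes and a threshold of 0.05. The shared estimate of the spread did not follow brightness. The fit was also run on simulated data with independent noise for each probe and array. Such data lack the signals that many probes of a pool share here, and no conclusion is drawn from that run. A bound of a probe not detected in 1 group compares the brighter group's mean with that of the dim group, where each array takes its detection limit or, if higher, its measured level. Such a bound leaves out the spread between pools. Figures were drawn with matplotlib 3.10.9 (Python 3.11.15).

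Gene names came from the platform annotation (34885 probes with 1 gene, 18 with several, 10378 with none). Named are the 10 higher and 10 lower genes with the smallest p, the 5 genes gained and the 5 lost with the largest difference, and of each list genes taken from the first 4 measured and those with an unadjusted p under 0.05. The brightest probe stands for a gene in a list. Pools that stand apart, Hoxc10, Akt2, Ddit4, Lcn2, Flt1, genes beyond 2-fold and those called within running numbers were chosen after their values were seen. The members and lists were chosen with earlier results of these data known. Nothing in the labels says that pools came from separate experiments, so p-values measure the spread between these pools. The number of arrays limits the precision. Replicate numbers did not pair the pools (correlation of same-numbered deviations 0.14, -0.53 and -0.50).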

Additional observations from a re-analysis of the deposited data

How the results depend on the processing

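The count of 0 called probes, and that of 0 for the difference between durations where both could be fitted, held under every alternative except 1: within running numbers 1 to 6, limma called 8 probes. At an unadjusted p under 0.05 the count of 650 lay between 523 and 1789 over the alternatives (886 with median scaling, which moved the median difference to 0.08, 1290 without saline pool 2, 783 with running number as a block, 601 in the authors' log2 values). With the replicate block, 545 probes had an unadjusted p under 0.05 and 0 were called, so the block changed no call. Of the deviations, those of 20E pool 3 were most like those of saline pool 2 (r = 0.63), not of its own number.

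The share of probes whose interval lay inside 2-fold was 96.6% and moved with the processing. It was 95.6% with only the 6 arrays normalized and fitted, 95.9% with the fit on 6 arrays, 79.5% in the authors' log2 values, 99.0% without background correction, 98.3% with an offset of 50, 97.9% without a filter, 97.8% for probes detected on all 6 arrays, 96.1% for those detected on at least 3 of 12, 96.2% with array weights and 95.8% with the replicate block. Within running numbers 1 to 6 and 7 to 12, which hold fewer arrays, it was 89.7% and 86.1%. Leaving out 1 pool gave 94.7% to 95.3%. Chosen after seeing the data, leaving out 20E pool 3 and saline pool 2 gave 95.04%, and leaving out 20E pool 1 as well gave 89.7%; both called 0 probes.

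Gained and lost probes numbered 28 and 13 at a detection p under 0.01. Leaving out 1 pool, which asks for fewer pools, gave 88 to 195 gained and 62 to 99 lost. The 16 probes more than 2-fold higher numbered between 1 (without 20E pool 1) and 258 (authors' log2 values, with 179 lower); with array weights they were 55, without background correction 3, within running numbers 1 to 6 201 and within 7 to 12 4, with 316 lower. The 99 probes beyond 1.5-fold became 111 to 464 when 1 pool was left out, 24 without background correction, 43 with an offset of 50, 267 with array weights, 926 and 980 within running numbers and 1142 in the authors' log2 values. The causes were not tested. Of 1177 values of the 50 named probes under the alternatives, 15 changed direction, all of them among the 16 probes beyond 2-fold. Within running numbers 7 to 12 these were -0.057 for Mrap, -0.31 for Prkar2b, -0.34 for Adipoq, -0.17 for Tmem45b, -0.12 for Cdo1, -0.45 for Cidec, -0.10 for Elovl6, -0.22 for Hoxc10, -0.14 for Aoc3, -0.041 for Cidea, -0.22 for Scd1 and -0.51 for Slc1a3. Leaving out 1 pool moved Hoxc10 between -0.42 and 1.92 and Tbx1 between 0.47 and 1.98. Without 20E pools 1 and 3 and saline pool 2, Hoxc10 was -0.60 and Tbx1 -0.074. Of 6648 values of the 278 genes of the lists, 767 changed sign and 0 passed the threshold. Dim probes limit what can be bounded: 27.4% of the dimmest bin was detected on all 6 arrays.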
